A study of Mus musculus with 1457 samples.

Results

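The genes of the bone morphogenetic protein (BMP) and transforming growth factor beta (TGF-beta) pathways were followed through the sorted cells in which blood arises from the embryonic aorta. The set held 37 genes, taken by symbol from the 36131 genes of the count tables by pathway membership. They comprised 5 BMP ligands, 3 TGF-beta ligands, 4 secreted BMP antagonists or modulators, 3 latent TGF-beta binding proteins, 10 receptors, 6 SMAD signal transducers, 2 inhibitory SMADs and 4 target genes. Values come from 1457 single cells of the aorta-gonad-mesonephros (AGM), the region of the mouse embryo that holds the dorsal aorta, sequenced by Smart-seq2 after flow cytometric sorting.

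All embryos were of the ICR strain and carried at least 1 reporter allele, so no group without a reporter was compared. All sorts shared a TER119- CD45- gate. Mesenchymal (Mes) cells were CD41-KIT-CDH5-RUNX1b+ cells from E10.5 embryos, of genotype Runx1b:RFP/RFP (labelled KO, 91 cells) or Runx1b:RFP/WT (het, 7.34% of all 1457 cells). Intra-aortic hematopoietic cluster (IAHC) cells were CD41+KIT+CDH5+GFI1+GFI1b+ (22 at E11.5 and 42 at E10.5), and cells in endothelial-to-hematopoietic transition (EHT, 41 at E10.5) were CD41+KIT+CDH5+GFI1+GFI1b-. Both came from Gfi1:Tomato/WT Gfi1b:GFP/WT embryos, called Gfi1/Gfi1b het here. Hemogenic endothelium (HE) was CD41-KIT-CDH5+ and GFI1+GFI1b-. It came from Gfi1/Gfi1b het embryos at E11.5 (40 cells) and E10.5 (95 cells), and from Gfi1:Tomato/Tomato Gfi1b:GFP/GFP embryos at E10.5 (labelled KO, 42 cells). The Runx1b:RFP/WT line gave E10.5 HE sorted as RUNX1b+ (17.98% of all cells), and a further 19.01% of cells, E10.5 HE as well, have KO in their titles but the genotype Runx1b:RFP/WT in their genotype field. They are called titled-KO cells. Endothelium (Endo) was CD41-KIT-CDH5+ and reporter-negative in the Gfi1/Gfi1b het line (16 cells at E11.5 and 74 at E10.5), and the exact gate of the E10.5 Runx1b:RFP/WT Endo cells (53) is not given in the sources used here. In E10.5 Gfi1:Tomato/WT embryos a sort on angiotensin-converting enzyme (ACE) gave ACE+GFI1+ HE (39 cells), ACE+GFI1- cells (7.96% of all cells) and ACE-GFI1- Endo (14). Another 3 groups, of 41 Endo, 43 HE and 42 EHT cells, carry E11.5 in the title and E10.5 in the stage field and enter only an alternative analysis. No label names an embryo or a pool of embryos, so the cells of each group were summed and a group counts as 1 sample.

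BMP and TGF-beta ligands are secreted dimers that bring together type I and type II serine/threonine kinase receptors. BMP receptors and ALK1 (Acvrl1) phosphorylate SMAD1, SMAD5 and SMAD9, whereas TGF-beta and activin receptors mainly phosphorylate SMAD2 and SMAD3, and both branches share SMAD4. The complexes act on promoters and enhancers, where the Id genes, Smad6 and Smad7 are well known targets. Latent TGF-beta binding proteins hold TGF-beta in the matrix, and noggin, chordin, gremlin and BMPER bind BMPs outside the cell. In the embryo, BMP4 made ventral to the dorsal aorta has a known part in the emergence of blood stem cells, and ALK1 with endoglin is needed for normal vessels.

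Promoters are shown because Id2, Id3 and Smad6 are targets of SMAD complexes and because each of these genes passed the test in at least 1 comparison below. Each run is the RefSeq window of GRCm38.p6 from 250 bases before to 50 bases after the gene's start, 5′ to 3′ on the gene's strand: chr9:64022010-64022309, minus strand, for Smad6, chr12:25096043-25096342, minus strand, for Id2 and chr4:136143572-136143871, plus strand, for Id3. Capitals mark 3 letter patterns searched on both strands: the SMAD box GTCT with its complement AGAC, the palindrome GTCTAGAC, which contains both boxes, and GGCGCC.
Smad6: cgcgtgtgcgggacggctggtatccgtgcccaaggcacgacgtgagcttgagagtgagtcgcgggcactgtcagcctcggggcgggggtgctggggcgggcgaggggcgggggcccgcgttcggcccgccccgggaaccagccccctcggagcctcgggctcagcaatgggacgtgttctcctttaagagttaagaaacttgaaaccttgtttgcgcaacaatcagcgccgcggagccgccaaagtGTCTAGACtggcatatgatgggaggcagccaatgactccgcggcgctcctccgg
Id2: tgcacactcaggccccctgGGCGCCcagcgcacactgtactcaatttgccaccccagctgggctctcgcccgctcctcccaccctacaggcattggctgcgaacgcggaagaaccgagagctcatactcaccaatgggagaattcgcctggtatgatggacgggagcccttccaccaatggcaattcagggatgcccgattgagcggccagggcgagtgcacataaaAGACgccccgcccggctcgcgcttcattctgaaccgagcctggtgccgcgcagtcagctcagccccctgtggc
Id3: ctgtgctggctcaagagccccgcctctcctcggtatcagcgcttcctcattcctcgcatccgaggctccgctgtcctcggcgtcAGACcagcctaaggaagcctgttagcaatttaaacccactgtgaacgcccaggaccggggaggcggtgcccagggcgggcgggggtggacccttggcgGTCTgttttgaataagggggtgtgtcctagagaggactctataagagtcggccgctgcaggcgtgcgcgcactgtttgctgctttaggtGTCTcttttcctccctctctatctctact
In the Smad6 window the palindrome begins 4 bases before the start. The table held windows for 26 of the 37 members, and among these only Smad6 had GTCTAGAC, against 0.213% of all 32851 windows of this length. The single box is common: GTCT or AGAC stood in the windows of 24 members and in 88% of all windows. GGCGCC stood in those of 9 members, Id2 included, and in 11.9% of all windows. The Id3 window held 2 boxes before the start and 1 that begins at base 22 of the transcript, and the Id2 window held 1 box, 23 bases before the start. A match is a description of these letters only. Windows for Bmp2, Bmp7, Tgfb3, Nog, Acvrl1, Tgfbr3, Smad2, Smad4, Smad7, Id1 and Tmem100 were not among those used.

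Depth ran from 12 to 5652968 reads per cell, with a median of 598000, and levels are given as counts per 1000000 reads (CPM) of each group's summed reads. The sorts carried their defining genes unevenly. A list of 24 mesenchymal genes summed to 5402 CPM in Runx1b het HE, against 229.9 to 557 CPM in the other HE sums, 79.4 to 324 CPM in the Endo sums and 6922 CPM in het Mes. In that HE sum 10 or more of 20 pan-endothelial genes were read in only 50% of the cells, and fewer in the rest. Hemoglobin and other erythroid genes took 145622 CPM in E10.5 HE of the Gfi1/Gfi1b line and 89391 CPM in Runx1b het HE, against 13.5 CPM in ACE+GFI1+ HE. In E11.5 IAHC they took 481932 CPM, with 14 of 22 cells erythroid-like (globin genes at 1% of reads or more), against 13.5 CPM in E10.5 IAHC. Of the targeted genes, Runx1 stood at 1.47 CPM in titled-KO HE and 17.8 CPM in Runx1b het HE, and at 20.1 CPM in labelled-KO Mes and 35.3 CPM in het Mes. Gfi1 and Gfi1b stood at 218.9 and 91.6 CPM in labelled-KO HE, against 55.2 and 52.1 CPM in het HE. Reads per gene do not show which part of the gene they cover, so these values do not check the label. The Endo group of conflicting stage stood apart from the other Endo sums, with 669 CPM of Ltbp4, 91.9 CPM of Smad6 and 176.9 CPM of Tmem100.

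Each of 3 comparisons had several sums on both sides. HE was set against Endo in 4 sets, each an HE and an Endo sum of the same line and stage. Mes (labelled-KO and het, 2 sums) was set against Endo (4 sums), and the CD41+KIT+ sums (E11.5 IAHC, E10.5 IAHC and EHT) against HE (4 sums). HE over Endo and Mes over Endo share the Endo sums, and HE over Endo and CD41+KIT+ over HE share the HE sums. In a sum, fewer cells that make a transcript and less of it per cell cannot be told apart. With edgeR's quasi-likelihood test at a Benjamini-Hochberg adjusted p under 0.05, 2 of 33 members tested differed between HE and Endo, both higher, beside 1.40% of all 14553 genes tested, or 0.886% counting higher genes alone. Between Mes and Endo 3 of 37 members differed, 2 higher and 1 lower, beside 1.33% of 18901 genes (0.561% higher and 0.767% lower). Between the CD41+KIT+ sums and HE 5 of 37 members differed, all lower, beside 3.48% of 18901 genes, of which 2.78% lower and 0.698% higher. The median log2 difference of the members was 0.66 in HE over Endo, against 0.09 for all genes tested, 0.99 in Mes over Endo, against 0.08, and -2.20 in CD41+KIT+ cells over HE, against -0.15. Mes and the Runx1b line cannot be told apart, since all Mes cells carry the Runx1b reporter and only 1 Endo sum does.

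**Figure D1:**
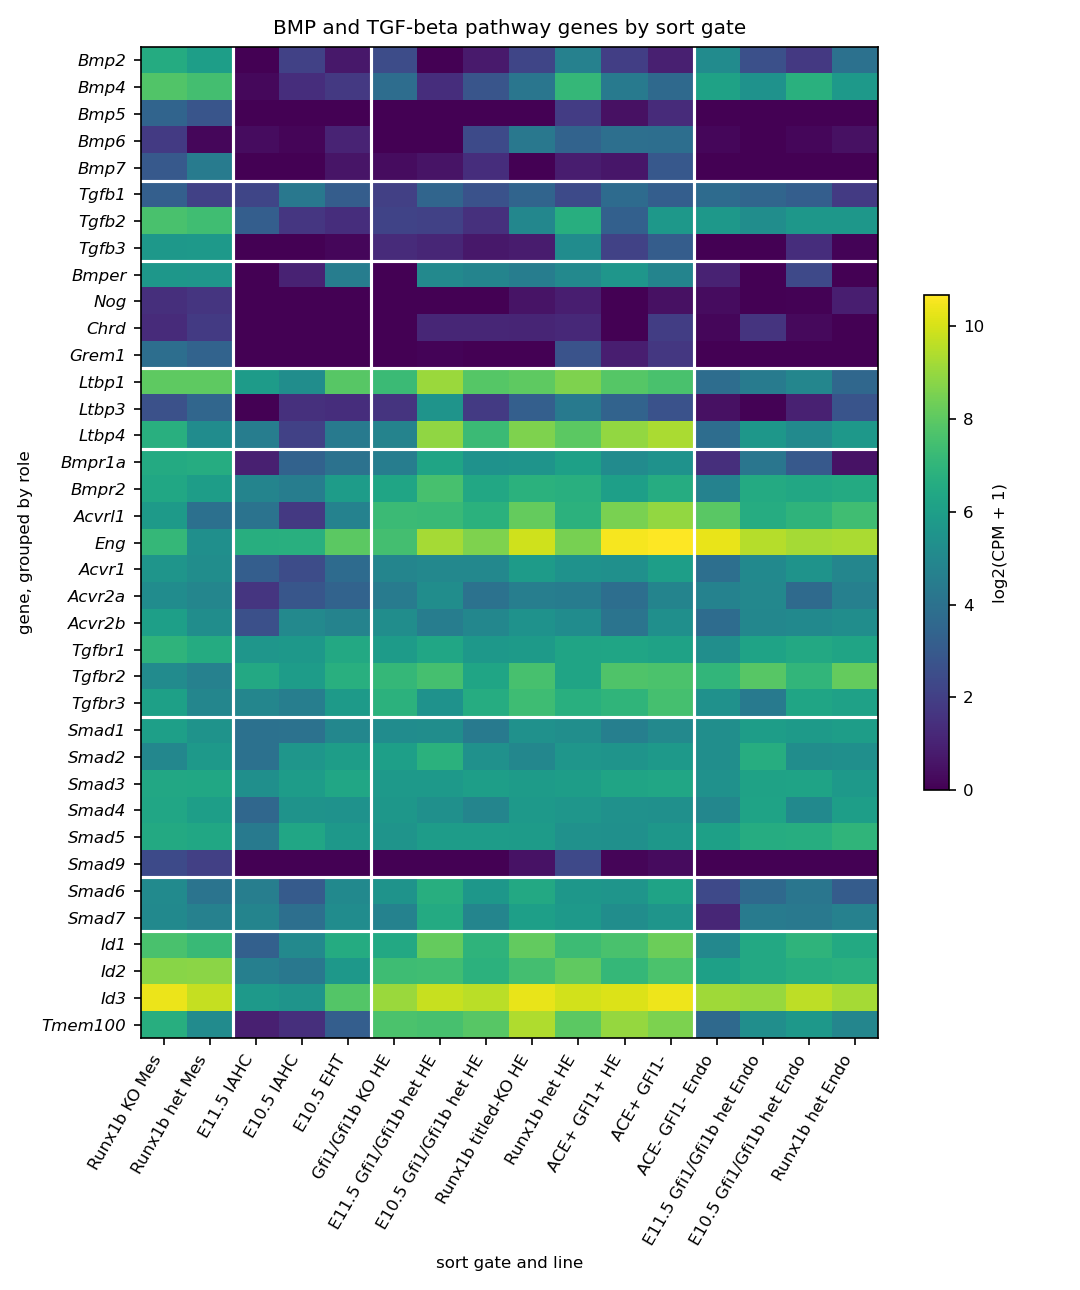
Colour gives log2(CPM + 1) of each of the 37 members (rows, by role) in 16 groups (columns) with the reads of all cells of a group summed. Bmp2, Bmp4, Tgfb2, Tgfb3 and Grem1 are brightest (highest) in the Mes columns. The receptors Eng, Acvrl1 and Tgfbr2 reach their highest values among the CDH5+ CD41-KIT- columns, and Ltbp4, Smad6 and Tmem100 among the HE and ACE+ columns. Not every such column is bright: in labelled-KO HE of the Gfi1/Gfi1b line Ltbp4 lies within the Endo range and Eng below EHT. For Tgfbr2 the HE and CD41+KIT+ columns overlap.

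By mean level per kb of exon over the sums of a gate, 21 of the 37 members were highest in Mes, 12 in HE, 3 in Endo and 1 in the CD41+KIT+ sums. Of all genes tested 34.2% were highest in Mes and 20.5% in HE. All 4 antagonists, 4 of 5 BMP ligands and 2 of 3 TGF-beta ligands were highest in Mes, whereas all 3 latent TGF-beta binding proteins and both inhibitory SMADs were highest in HE. Receptors were spread over gates, with 5 of 10 highest in Mes, 3 in HE and 2 in Endo. Per kb, Id3 was the leading member in every gate, at a mean of 603 CPM per kb in Mes, 60.2 in CD41+KIT+ cells, 521 in HE and 349 in Endo.

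Among the BMP ligands, Bmp4 and Bmp2 lay above every Endo sum in both Mes sums, and neither passed the test. Bmp4, the ligand tied to the ventral side of the aorta, stood at 218.6 CPM in labelled-KO Mes and 177.3 CPM in het Mes, against 109.1, 42.7, 51.6 and 69.2 CPM in E10.5, E11.5, Runx1b and ACE-GFI1- Endo. In CD41+KIT+ cells it was nearly unread, at 0.174 CPM in E11.5 IAHC, 1.62 CPM in E10.5 IAHC and 2.43 CPM in EHT, against 6.12, 1.65, 136.3 and 19.3 CPM in E10.5, E11.5, Runx1b and ACE+GFI1+ HE. The CD41+KIT+ and HE ranges overlap, because E11.5 HE lies below EHT, and the log2 difference of -4.98 had an adjusted p of 0.0665 in edgeR's test. Bmp2, a related ligand, stood at 95 and 62.6 CPM in the Mes sums, against 2.41 to 34.3 CPM in Endo. Its HE values spread from 0 to 25.2 CPM.

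The remaining BMP ligands were low, and their patterns differ from that of Bmp4. Bmp5 had reads in both Mes sums (9.76 CPM in labelled-KO and 6.02 CPM in het Mes) and 0 in all 4 Endo sums. Of its exonic length 46.7% overlaps an antisense gene, and no source used here says that counting used strand. Bmp7 stood at 6.95 CPM in labelled-KO Mes and 21 CPM in het Mes and had 0 reads in all 4 Endo sums (adjusted p = 0.0518, edgeR's quasi-likelihood test). Bmp6 was the 1 BMP ligand highest in HE, with 4.29, 0, 9.61 and 14.1 CPM in E10.5, E11.5, Runx1b and ACE+GFI1+ HE, against 0 to 0.407 CPM in Endo. The groups touch at 0 in E11.5 HE, and the adjusted p was 0.0971.

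Of the TGF-beta ligands, Tgfb2 and Tgfb3 were highest in Mes. Tgfb2, which acts in heart and vessel development, was at 195.6 CPM in labelled-KO Mes and 167.5 CPM in het Mes, against 36.5 to 51 CPM in Endo. Both Mes sums lay above the Endo range, but its difference did not pass the test. In HE it was at 1.77, 3.23 and 8.56 CPM in E10.5, E11.5 and ACE+GFI1+ HE, below every Endo sum, and at 101.6 CPM in Runx1b HE, above every Endo sum. Tgfb3 stood at 50.3 and 52.5 CPM in the Mes sums and at most at 1.67 CPM in Endo. Tgfb1, the ligand common in blood cells, was the member highest in the CD41+KIT+ gate, with 3.70 CPM in E11.5 IAHC, 18.3 CPM in E10.5 IAHC and 7.96 CPM in EHT, against 4.30 to 12.4 CPM in HE. These ranges overlap.

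In Runx1b het HE the ligand genes differed between the cells with many and with few endothelial genes, in both directions. Cells in which 10 or more of the 20 genes were read, one of 2 equal parts of the sort, summed to 15 CPM of Bmp4, 17.7 CPM of Tgfb2, 2.47 CPM of Tgfb3 and 0.736 CPM of Bmp2. The other cells summed to 242.3 CPM of Bmp4, 174.9 CPM of Tgfb2, 64.1 CPM of Tgfb3 and 46.6 CPM of Bmp2, and they also held 3408 CPM of the collagen gene Col1a1, against 76.4 CPM in the first part. Bmp6, at 17.1 CPM in the cells with at least 10 of the genes and 3.11 CPM in the rest, and Tgfb1, at 6.08 and 2.74 CPM, ran the other way. So did every receptor, though Bmpr1a, at 67.2 and 63.5 CPM, hardly differed. Eng stood at 766 CPM in the cells with at least 10 of the genes and 9.10 CPM in those with fewer. In the same order, Acvrl1 stood at 237.5 and 8.54 CPM, and Tgfbr2 at 143.8 and 13.7 CPM. Ltbp4 stood at 491 and 44.6 CPM, Smad6 at 78 and 22.9 CPM, and Tmem100 at 534 and 7.47 CPM. Ltbp1 (340 and 441 CPM), Id2 (197.7 and 330 CPM) and Id3 (927 and 1015 CPM) were higher in the cells with fewer of the genes. Eng is 1 of the 20 genes that made the split, so its difference follows in part from the choice of cells. Within the Runx1b line, Bmp4 was 1.40 higher in HE than in Endo on the log2 scale over all cells and 1.78 lower with both sorts restricted to cells with at least 10 of the genes, a value of -1.78. Tgfb2 turned likewise, with 1.04 over all cells and -1.48 in the restricted cells.

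**Figure D2:**
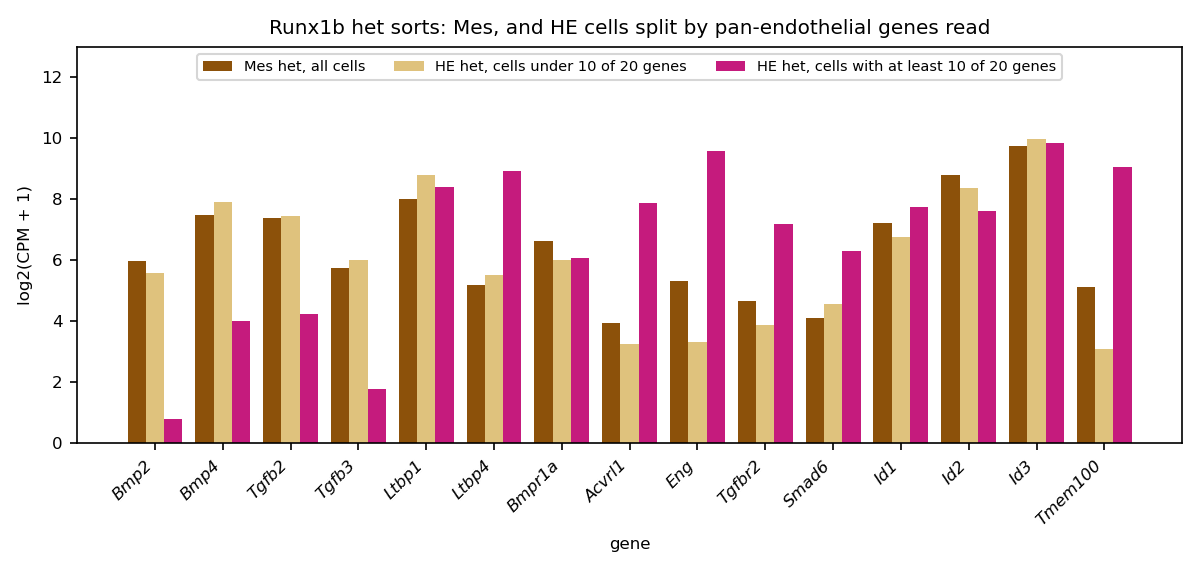
Bars give log2(CPM + 1) of 15 members in all Runx1b het Mes cells and in Runx1b het HE cells in which under 10, or 10 and more, of 20 pan-endothelial genes were read. Bmp4, Tgfb2 and Tgfb3 in the HE cells with few of these genes stand near the Mes bars, and Acvrl1 and Tmem100 stand high in the other HE cells, as does Eng, which is 1 of the 20 genes.

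Of the secreted antagonists and modulators, Bmper was read in both Mes and HE, and the other 3 were at most 5.69 CPM outside Mes. Bmper, which binds BMPs and can raise or damp their signal, was at 49.1 and 48.1 CPM in labelled-KO and het Mes, above every Endo sum (0 to 4.13 CPM). It was also above every Endo sum in all 4 HE sums, at 27.1, 31.3, 31.4 and 48.5 CPM in E10.5, E11.5, Runx1b and ACE+GFI1+ HE, with an adjusted p of 0.138 in edgeR's test. EHT had 21.9 CPM, whereas IAHC had 0 CPM at E11.5 and 1.03 CPM at E10.5. Grem1 stood at 13.5 and 9.57 CPM in the Mes sums and at most at 0.0249 CPM in Endo (adjusted p = 0.0949). Noggin (Nog) and chordin (Chrd) stayed under 3 CPM in every group.

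Of the latent TGF-beta binding proteins, Ltbp1 rose in HE and in Mes over Endo, and Ltbp4 fell in CD41+KIT+ cells against HE. Ltbp1, which anchors latent TGF-beta to fibrillin and fibronectin, stood at 229.9, 537, 394 and 232.6 CPM in E10.5, E11.5, Runx1b and ACE+GFI1+ HE, against 29.2, 21, 10.7 and 12.9 CPM in the matching Endo sums. Every HE sum lay above every Endo sum, a log2 difference of 4.34 ± 0.40 (SE from the fit) with an adjusted p of 0.0175 in edgeR's quasi-likelihood test. The call was lost without the Runx1b set (adjusted p = 0.0748, same test) and without the ACE set (adjusted p = 0.141). Ltbp1 was at 261.5 CPM in labelled-KO Mes and 257.2 CPM in het Mes, both also above all Endo sums, with a log2 difference of 3.75 ± 0.58 and an adjusted p of 0.0130. That call ended without het Mes (adjusted p = 0.0800), and with the groups of conflicting stage labels, where the log2 difference was 2.0 (adjusted p = 0.303). The Endo group of conflicting stage had 253.7 CPM of Ltbp1, far above the other Endo sums. CD41+KIT+ values were 57.4 CPM in E11.5 IAHC, 37 CPM in E10.5 IAHC and 236.8 CPM in EHT, so EHT lay within the HE range and IAHC below it.

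Ltbp4, the family member that also serves elastic fibre assembly, stood at 22.1, 3.16 and 19.3 CPM in E11.5 IAHC, E10.5 IAHC and EHT, against 155.4, 473, 252.8 and 486 CPM in E10.5, E11.5, Runx1b and ACE+GFI1+ HE. No CD41+KIT+ sum reached the lowest HE sum. The log2 difference was -4.01 ± 0.84 (adjusted p = 0.0270, edgeR's quasi-likelihood test). The call was lost without EHT (0.0716), without E10.5 IAHC (0.0538), without ACE+GFI1+ HE (0.0653) and with the groups of conflicting stage (0.0650), all adjusted p values. Against Endo (33.3, 48.6, 50.2 and 13.2 CPM) the HE sums also lay wholly above, with a log2 difference of 3.28 ± 0.52 and an adjusted p of 0.0555. Ltbp3, a smaller family member, had a wide HE range of 2.47 to 45.5 CPM against 0.0444 to 5.83 CPM in Endo.

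The receptor genes Acvrl1 and Eng lay lower in CD41+KIT+ cells than in HE and lower in Mes than in Endo, and 1 of these 4 differences passed the test. Acvrl1, which encodes ALK1, stood at 15.7, 2.45 and 25.5 CPM in E11.5 IAHC, E10.5 IAHC and EHT, against 111.6, 149.9, 115.3 and 368 CPM in E10.5, E11.5, Runx1b and ACE+GFI1+ HE. The groups do not overlap, and Acvrl1 fell by 3.32 on the log2 scale (SE 0.82, adjusted p = 0.0478, edgeR's quasi-likelihood test). This call is at the edge of the threshold: it held in 8 of 17 alternatives. Every leave-out of 1 sum lost it, with adjusted p between 0.0534 and 0.113 in edgeR's test. Mes held 55.5 CPM in the labelled-KO sum and 14.4 CPM in the het sum, against 97 to 245.4 CPM in Endo, and this difference of -2.27 on the log2 scale did not pass (adjusted p = 0.248). It passed in 1 of 15 alternatives, with cells chosen by pan-endothelial genes (log2 difference -4.39, adjusted p = 0.0270 in edgeR's test). HE and Endo overlap for this gene.

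Eng, the co-receptor endoglin, followed the same order without passing. It stood at 102.7, 105.3 and 249.4 CPM in E11.5 IAHC, E10.5 IAHC and EHT, all under the lowest HE sum of 362 CPM (adjusted p = 0.0816, edgeR's quasi-likelihood test). Labelled-KO Mes had 135.5 CPM and het Mes 39.1 CPM, against 601 to 1292 CPM in Endo, with a log2 difference of -3.30 ± 0.74 and an adjusted p of 0.0518. The Mes difference passed in 7 of 15 alternatives, among them with cells chosen by the pan-endothelial genes, which include Eng itself. Tgfbr2, the type II receptor for TGF-beta, was the only receptor whose difference between Mes and Endo passed the test. It had 34.6 CPM in labelled-KO and 24.5 CPM in het Mes, against 128.1, 236.9, 282 and 129.9 CPM in E10.5, E11.5, Runx1b and ACE-GFI1- Endo. No Mes sum reached the Endo range, and Tgfbr2 fell by 2.79 on the log2 scale (SE 0.60, adjusted p = 0.0461). The call was lost in 8 of 15 alternatives, among them each of the 6 leave-outs, with adjusted p between 0.0616 and 0.348. CD41+KIT+ and HE sums overlap for Tgfbr2, at 58 to 106.5 CPM and 74.3 to 213.98 CPM.

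Bmpr1a, the BMP type I receptor ALK3, had the largest fitted difference from Endo among the 10 receptors, both in HE and in Mes, and passed neither test. It stood at 42, 74.3, 65.2 and 34.6 CPM in the HE sums, against 7.02, 17.5, 0.440 and 1.71 CPM in the Endo sums. Every HE sum lay above every Endo sum, with a log2 difference of 3.89 ± 0.97 and an adjusted p of 0.120 in edgeR's quasi-likelihood test. Mes had 91.4 and 98 CPM, above both (adjusted p = 0.0994 against Endo). CD41+KIT+ cells had 0.907 to 15.3 CPM, under every HE sum.

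The remaining receptors varied less. Acvr1 (ALK2) and Acvr2a, an activin and BMP type II receptor, were lower in every CD41+KIT+ sum than in any HE sum, with adjusted p of 0.0598 and 0.0652 in edgeR's test. Acvr1 had 4.51 to 12.2 CPM in CD41+KIT+ cells and 30.5 to 42 CPM in HE. Bmpr2, the BMP type II receptor, had 21.8 to 58.7 CPM in CD41+KIT+ cells and 65.1 to 188.1 CPM in HE. Tgfbr3 (betaglycan) was higher in HE than in Endo within all 4 sets, with a log2 difference of 0.99 ± 0.22 and an adjusted p of 0.0989. Tgfbr1 (ALK5) and Acvr2b were read in every group, at 37.7 to 123.4 CPM and 5.15 to 65 CPM.

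Of the 6 SMAD signal transducers, Smad1, Smad2, Smad3, Smad4 and Smad5 were read in every group, Smad9 was not, and none of the 6 passed a test. Smad5, a transducer of the BMP branch, was the 1 member that lay lower in every HE sum (59.1, 58.7, 41.8 and 40.2 CPM) than in any Endo sum (98.7, 97.9, 126.4 and 65.8 CPM), with an adjusted p of 0.113 in edgeR's quasi-likelihood test. Smad1, of the same branch, was lower in HE within all 4 sets, at 19.9 to 37.7 CPM against 37.3 to 61.4 CPM in Endo (adjusted p = 0.134). Smad9, a further BMP SMAD, was read in Mes (4.32 and 3.07 CPM) and Runx1b HE (4.07 CPM) and had 0 reads in all 4 Endo and all 3 CD41+KIT+ sums. In Runx1b HE all Smad9 reads came from cells with under 10 of the 20 pan-endothelial genes (27 cells with a read). The TGF-beta branch members Smad2 and Smad3 ranged from 14.7 to 113.2 CPM and 39.2 to 84 CPM over the groups, and the shared Smad4 from 11 to 77.8 CPM.

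**Figure D3:**
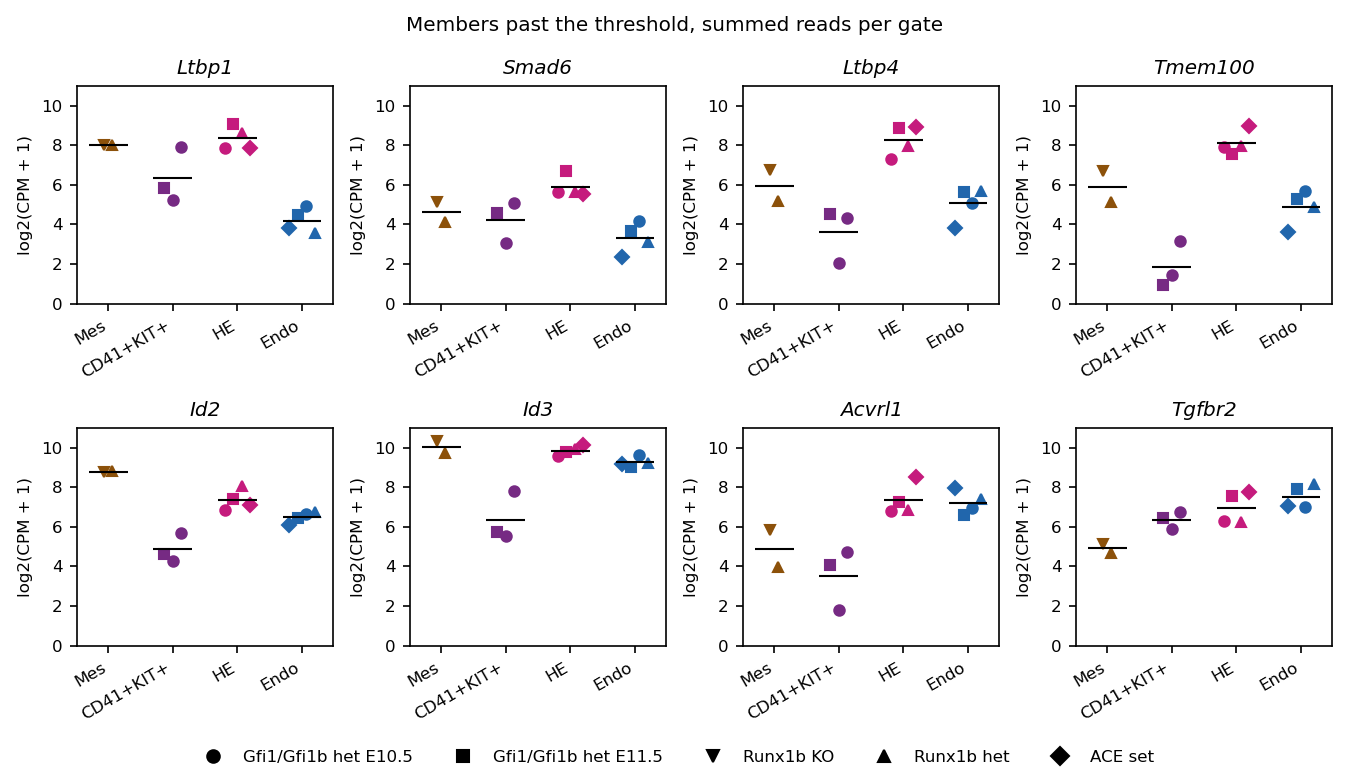
Points give log2(CPM + 1) of 8 members in each sum of the Mes, CD41+KIT+, HE and Endo gates, and lines the mean of these log2 values. Ltbp1, Smad6, Ltbp4 and Tmem100 have every HE point above every Endo point, and Ltbp4, Tmem100, Id2, Id3 and Acvrl1 have every CD41+KIT+ point below every HE point.

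Smad6, an inhibitory SMAD that blunts BMP signalling, rose in HE. It stood at 49.6, 103.4, 48.6 and 45.8 CPM in E10.5, E11.5, Runx1b and ACE+GFI1+ HE, against 17.1, 11.6, 7.66 and 4.12 CPM in the matching Endo sums. The ranges do not overlap, and the log2 difference was 2.79 ± 0.36 (SE from the fit, adjusted p = 0.0366, edgeR's quasi-likelihood test). Without any 1 of the 4 sets the call was lost, with adjusted p between 0.0751 and 0.175, and with the conflicting-stage groups it stood at 0.0515. In CD41+KIT+ cells Smad6 lay at 22.9, 7.39 and 33 CPM in E11.5 IAHC, E10.5 IAHC and EHT, under every HE sum. Smad7, the inhibitory SMAD of both branches, was higher in every HE sum (27.7, 90.2, 54.2 and 36.8 CPM) than in any Endo sum (19.1, 20.6, 25 and 1.23 CPM), with an adjusted p of 0.200.

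**Figure D4:**
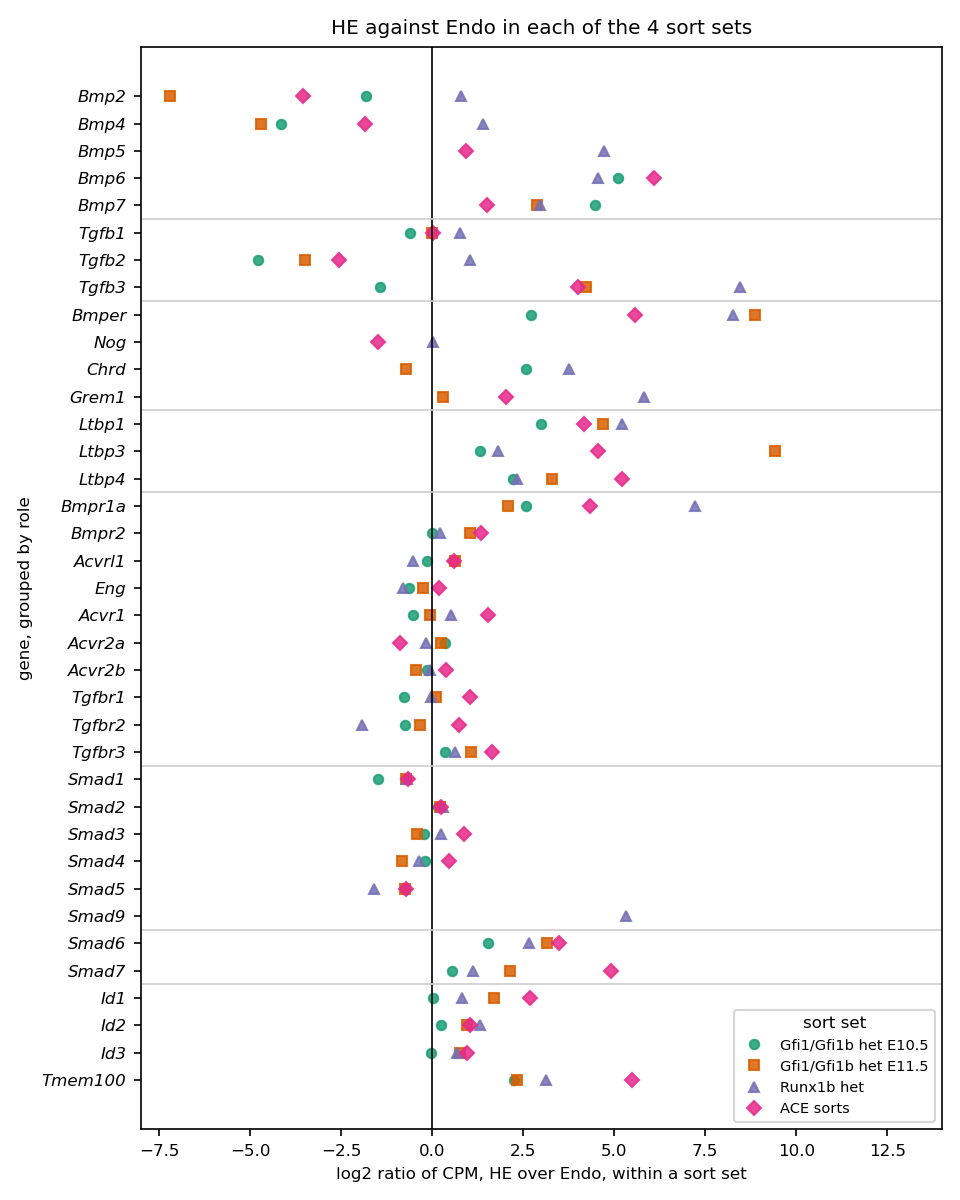
Points give the log2 ratio of HE over Endo CPM for each of the 4 sets (E10.5 and E11.5 Gfi1/Gfi1b het, Runx1b het, ACE sort), with sums under 3 reads set to 3 reads. Ltbp1, Ltbp4, Smad6, Bmpr1a and Tmem100 lie right of 0 in all sets, and Bmp4 and Tgfb2 have the Runx1b set on the other side of 0 from the rest.

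Of the 4 target genes, 3 fell in CD41+KIT+ cells against HE. Tmem100, a membrane protein downstream of ALK1 in endothelium, stood at 0.918, 1.74 and 8.01 CPM in E11.5 IAHC, E10.5 IAHC and EHT, against 237.1, 188.4, 253.02 and 508 CPM in E10.5, E11.5, Runx1b and ACE+GFI1+ HE. Every HE sum lay far above every CD41+KIT+ sum, and Tmem100 fell by 6.39 on the log2 scale (SE 0.82, adjusted p = 0.0056, edgeR's quasi-likelihood test). Endo had 50.1, 37.8, 28.8 and 11.46 CPM, all under the lowest HE sum, with a log2 difference of 3.29 ± 0.59 for HE over Endo and an adjusted p of 0.0645.

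Id3, which encodes an inhibitor of basic helix-loop-helix factors, stood at 52.1, 44.7 and 226.5 CPM in E11.5 IAHC, E10.5 IAHC and EHT, against 768, 881, 974 and 1111 CPM in E10.5, E11.5, Runx1b and ACE+GFI1+ HE. It fell by 3.01 on the log2 scale (SE 0.45, adjusted p = 0.0074, edgeR's quasi-likelihood test), with no overlap. Mes had 1303 CPM in the labelled-KO and 857 CPM in the het sum, above all Endo sums (524 to 790 CPM).

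Id2, of the same family, stood at 23.6, 18.4 and 50.1 CPM in E11.5 IAHC, E10.5 IAHC and EHT, against 116.03, 167.1, 268.4 and 138.1 CPM in the HE sums. No CD41+KIT+ sum reached HE, and Id2 fell by 2.27 on the log2 scale (SE 0.39, adjusted p = 0.0119, edgeR's quasi-likelihood test). It rose in Mes, at 436 and 445 CPM in labelled-KO and het cells against 67 to 108.6 CPM in Endo, by 2.23 ± 0.39 (adjusted p = 0.0209). The Mes call was lost in all 6 leave-outs, with adjusted p between 0.0522 and 0.162. HE lay above Endo in all sums (adjusted p = 0.0869). Id1 had 8.72, 31.7 and 95.1 CPM in the CD41+KIT+ sums, all under the lowest HE sum of 122.5 CPM (adjusted p = 0.0663).

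Erythroid genes differ between these sums as given above, and the counts were therefore repeated without erythroid-like cells. For CD41+KIT+ over HE 6 members then passed, beside 4.20% of all genes, for HE over Endo 3, beside 1.58%, and for Mes over Endo 3, beside 1.15%. A repeat without E11.5 IAHC as well, added after the data had been seen, gave 6 members for CD41+KIT+ over HE, beside 4.14% of all genes. Within the Gfi1/Gfi1b line alone, with stage as a block, no gene passed (0 genes at an adjusted p under 0.05, 1777 at an unadjusted p under 0.05), and Tmem100, Id2 and Id3 each stood at an adjusted p of 0.446 in edgeR's test. This fit had 2 residual degrees of freedom, and the log2 differences were -6.17 for Tmem100, -1.89 for Id2 and -2.85 for Id3.

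In 15 members every CD41+KIT+ sum lay below every HE sum, beside 12% of all genes tested, and in none above, beside 3.25%. The 20 pan-endothelial genes, Eng among them, summed to 1642 to 3842 CPM in the CD41+KIT+ sums and 7775 to 21291 CPM in the HE sums, and their part in these values was not tested. The 15 members were 2 secreted members (Tgfb3 and Bmper), Ltbp3 and Ltbp4, the receptors Bmpr1a, Bmpr2, Acvrl1, Eng, Acvr1 and Acvr2a, Smad6, and all 4 targets. Between HE and Endo 10 members lay wholly above, beside 7.18% of genes, and 1 (Smad5) wholly below, beside 5.70%. For Mes over Endo 17 members lay wholly above, beside 21.3%, and 3 receptors (Acvrl1, Eng and Tgfbr2) wholly below, beside 9.51%.

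A wider list of other pathway genes, 74 of which are in the tables, was read from the same fits. For HE over Endo 1 of 37 that could be tested passed, beside 1.40% of all genes tested (0.886% higher). It was Fstl1, a secreted follistatin-like protein, with a log2 difference of 1.86 ± 0.20 (adjusted p = 0.0238, edgeR's quasi-likelihood test). For CD41+KIT+ over HE 7 of 62 passed, all lower, beside 3.48% of all genes tested (2.78% lower). Among them were Ctgf, a TGF-beta responsive matrix protein, at -8.25, Bgn, the matrix proteoglycan biglycan, at -4.72, Rgmb, a BMP co-receptor, at -3.29, Fstl1 at -2.94 and Neo1, which binds RGM proteins, at -2.85, all log2 differences. For Mes over Endo 3 of 62 passed, all higher, beside 1.33% of all genes tested (0.561% higher).

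The E10.5 sorts of the Gfi1/Gfi1b het line give a stage order with 1 sum at each step, so no test applies and a 2-fold ratio serves as description. Id3 stood at 790 CPM in Endo, 768 in HE, 226.5 in EHT and 44.7 in IAHC. Reads of Id3 were found in 95.9% of Endo cells (exact 95% interval 88.6 to 99.2%), 83.2% of HE (74.1 to 90.1%), 63.4% of EHT (46.9 to 77.9%) and 19.05% of IAHC cells (8.601 to 34.1%), and after thinning to 100000 reads per cell in 94.5, 83.2, 63.4 and 19.05%. By CPM, Id3 was about level between Endo and HE and lower at both later steps. Of the 95 HE cells 16 were erythroid-like, against 0 in the Endo, EHT and IAHC sorts of this order. Their part in these levels and shares was not tested. Acvrl1 stood at 123.2, 111.6, 25.5 and 2.45 CPM in the same order, with reads in 72.6% of HE cells (62.5 to 81.3%) and 11.9% of IAHC cells (3.98 to 25.6%), or 69.5 and 7.14% after thinning. Tmem100 peaked in HE, at 50.1, 237.1, 8.01 and 1.74 CPM, with reads in 55.8% of HE cells (45.2 to 65.98%) and 12.2% of EHT cells (4.08 to 26.2%), or 53.7 and 12.2% after thinning. Ltbp1 had 29.2 CPM in Endo, 229.9 in HE, 236.8 in EHT and 37 in IAHC, so its high level extended into EHT. Bmp4 was highest at the first step, at 109.1, 6.12, 2.43 and 1.62 CPM.

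**Figure D5:**
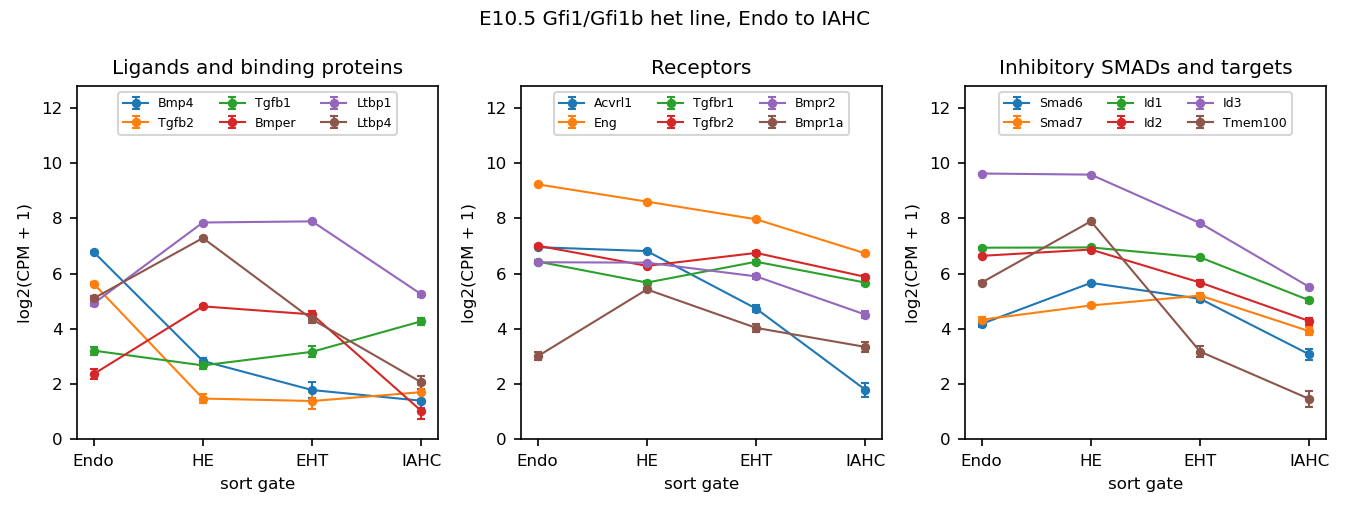
Lines give log2(CPM + 1) of members over the E10.5 Gfi1/Gfi1b het sorts Endo, HE, EHT and IAHC (1 sum each) in 3 panels of related members, and error bars give the 95% Poisson interval of the summed reads, which covers counting error only. Tmem100 is highest in HE, Acvrl1 and Id3 decline through EHT to IAHC, and Ltbp1 stays at its HE level in EHT.

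Between EHT and HE at E10.5, 12 of 33 members measured were at least 2-fold lower in EHT, beside 17.1% of all genes, and 0 at least 2-fold higher, beside 20.5%. With at least 10 CPM in either group there were 0 higher of 24, beside 10.8% of genes, and 7 lower, beside 9.57%: Ltbp4, Bmpr1a, Acvrl1, Acvr1, Id2, Id3 and Tmem100. Erythroid genes took 29.6 CPM in EHT and 145622 CPM in HE, and without erythroid-like cells 15 members were lower, beside 20.1% of all genes. Between IAHC and EHT, 16 of 31 were lower in IAHC, beside 17.6%, and 2 higher, beside 12.3%. Of the 23 members with at least 10 CPM in either group, 13 were lower and 1 higher, beside 8.59% and 3.84%. The higher one was Tgfb1, with 18.3 CPM in IAHC and 7.96 CPM in EHT. Acvrl1 had a log2 ratio of -2.13 in the first step and -3.38 in the second, whereas Tmem100 had -4.89 in the first. Bmper stood at 1.03 CPM in IAHC and 21.9 CPM in EHT.

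In the ACE sort 22 of 37 members were at least 2-fold higher in ACE+GFI1- cells than in ACE-GFI1- Endo, beside 24.8% of all genes, and 2 lower, beside 17.9%. Smooth muscle genes summed to 694 CPM in ACE+GFI1- cells and 29.4 CPM in ACE-GFI1- Endo, mesenchymal genes to 621 and 324 CPM, and pan-endothelial genes to 23675 and 14120.5 CPM. Their part in these values was not tested. Of 29 members with at least 10 CPM, 16 were higher, beside 18.3%, and 2 lower, beside 12.1%. Ltbp4 stood at 636 CPM in ACE+GFI1- cells and 13.2 CPM in ACE-GFI1- Endo, Tmem100 at 376 and 11.46 CPM, Smad7 at 46 and 1.23 CPM, and Smad6 at 72.1 and 4.12 CPM. All 4 were also higher in HE than in Endo within each of the other 3 sets. The 2 lower members were both BMP ligands: Bmp4 had 11.4 CPM in ACE+GFI1- cells and 69.2 CPM in ACE-GFI1- Endo, and Bmp2 0.916 and 34.3 CPM. The ACE-GFI1- sum holds only 14 cells.

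ACE+GFI1+ HE differed less from ACE+GFI1- cells. With at least 10 CPM in either group, 0 of 28 members were 2-fold higher, beside 4.01% of genes, and 2 were lower, beside 4.06%. Tgfb2 stood at 8.56 CPM in ACE+GFI1+ HE and 51 CPM in ACE+GFI1- cells, and Acvr2b at 16.4 and 39 CPM. Over all 37 members 1 was higher, beside 11.7%, and 9 lower, beside 15.9%. Tmem100 had 508 CPM in ACE+GFI1+ HE and 376 CPM in ACE+GFI1- cells, and Ltbp4 486 and 636 CPM.

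Between stages, HE at E11.5 had 11 of 34 members at least 2-fold higher than HE at E10.5, beside 21.6% of genes, and 5 lower, beside 24.4%. Of 26 with at least 10 CPM, 10 were higher, beside 18.6%, and 1 lower, beside 9.97%. Erythroid genes took 2751 CPM in E11.5 HE and 145622 CPM in E10.5 HE. Without erythroid-like cells 4 members were higher, beside 16.3% of all genes, and 5 lower, beside 26.2%. Smad7 stood at 90.6 CPM in E11.5 HE and 36.6 CPM in E10.5 HE in that setting, and Smad2 at 113.6 and 50.7 CPM. Tgfbr3 went the other way, at 42.2 CPM in E11.5 HE and 126.6 CPM in E10.5 HE. In Endo 6 of 32 were higher at E11.5, beside 15.4%, and 5 lower, beside 27.1%, and with at least 10 CPM 4 of 26 were higher, beside 10.2%, and 2 lower, beside 13.6%. In IAHC 5 of 30 were higher at E11.5, beside 10.9%, and 12 lower, beside 55.6%, and with at least 10 CPM 3 of 20 were higher, beside 7.01%, and 6 lower, beside 55.1%. Without erythroid-like cells, which leaves 8 cells at E11.5, 15 were higher, beside 21.3%, and 7 lower, beside 29.3%, so this comparison turns with those cells.

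In HE labelled KO for Gfi1 and Gfi1b, 3 of 33 members were at least 2-fold higher than in het HE of E10.5, beside 17.2% of genes, and 6 lower, beside 15.5%. Among 25 with at least 10 CPM, 1 was higher, beside 6.88%, and 3 lower, beside 6.48%. Bmp4 stood at 13.3 CPM in labelled-KO HE and 6.12 CPM in het HE, Ltbp4 at 26.2 and 155.4 CPM, Eng at 176.9 and 389 CPM, and Bmper at 0 and 27.1 CPM. Acvrl1 (156.3 and 111.6 CPM), Tmem100 (199.7 and 237.1 CPM) and Smad6 (44.1 and 49.6 CPM) differed by less than 2-fold. Erythroid genes took 35477 CPM in labelled-KO HE and 145622 CPM in het HE. Without erythroid-like cells 2 members were higher, beside 13.6% of all genes, and 9 lower, beside 18%, and Bmp4 stood at 6.76 CPM in labelled-KO HE and 7.32 CPM in het HE. Each group is 1 sum, so the spread between such groups is unknown.

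In titled-KO HE of the Runx1b line 5 of 37 members were at least 2-fold higher than in Runx1b het HE, beside 14.2% of genes, and 9 lower, beside 20.1%. Among those with at least 10 CPM, 4 of 30 were higher, beside 6.54%, and 5 lower, beside 6.98%. Bmp4 stood at 17.5 CPM in titled-KO HE and 136.3 CPM in het HE, Tgfb2 at 29.6 and 101.6 CPM, and Tgfb3 at 0.755 and 35.4 CPM. Eng stood at 947 CPM in titled-KO HE and 362 CPM in het HE, Acvrl1 at 284 and 115.3 CPM, and Tmem100 at 673 and 253.02 CPM. The 24 mesenchymal genes summed to 308 CPM in titled-KO HE and 5402 CPM in het HE, and their part in these values was not tested. Restricted to cells with at least 10 of those 20 endothelial genes, 4 of 36 members were higher, beside 14.6% of all genes, and 4 lower, beside 15.7%. In these cells Bmp4 stood at 15.9 CPM in titled-KO HE and 15 CPM in het HE, and Tgfb2 at 29.4 and 17.7 CPM. In the same order, Eng, itself among the 20 genes, stood at 959 and 766 CPM, Acvrl1 at 287.6 and 237.5 CPM, and Tmem100 at 682 and 534 CPM. All of these differed by less than 2-fold, whereas Tgfb3, at 0.761 and 2.47 CPM, did not.

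In Mes, 8 of 37 members were at least 2-fold higher in labelled-KO than in het cells, beside 18.1% of genes, and 1 lower, beside 15%. With at least 10 CPM 6 of 31 were higher, beside 6.24%, and 1 lower, beside 5.53%. Acvrl1 stood at 55.5 CPM in labelled-KO Mes and 14.4 CPM in het Mes, Eng at 135.5 and 39.1 CPM, and Tmem100 at 102.99 and 34 CPM. Bmp7 was the lower member, at 6.95 CPM in labelled-KO and 21 CPM in het Mes. The 20 pan-endothelial genes summed to 2703 CPM in labelled-KO Mes and 705 CPM in het Mes, and the part of such cells in these values was not tested. With the cells chosen by those genes, 3 members were higher, beside 17.3% of all genes, and 2 lower, beside 15.7%. Bmp4 (218.6 and 177.3 CPM), Tgfb2 (195.6 and 167.5 CPM), Ltbp1 (261.5 and 257.2 CPM) and Id2 (436 and 445 CPM) differed by less than 2-fold.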

How the data were processed

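The authors deposited raw counts of reads per gene and cell, from cells sorted into plates and sequenced by a modified Smart-seq2 protocol, per the labels' protocols. bcl2fastq, STAR 2.4.2a, HTSeq 0.6.1p1, R 3.6.2 and the build GRCm38 are named in the submitters' processing notes; no annotation release and no use of strand is stated in the sources used here. Only genes held whole in both count tables were used, which left out 10.1% of the reads of the ACE cells. Reads were summed per group, with no filter on cells and no doublet caller, and divided by group totals (CPM). Sums were compared with edgeR 4.0.16 in R 4.3.3 (TMM scaling, filterByExpr by gate, quasi-likelihood F-test, Benjamini-Hochberg adjustment over all genes tested, threshold 0.05) and, as an alternative, DESeq2 1.42.0. HE and Endo were compared over 8 sums with a term for set, leaving 3 residual degrees of freedom. The other comparisons came from 1 fit of 13 sums by gate (9 residual degrees of freedom). Each SE of a log2 difference, also where written after ±, is its absolute value divided by the square root of the test's F statistic. It is not a standard error taken directly over the sets or sums. Sets were treated as pairs because their sums share line and stage by the labels. The sums of a set deviated together only weakly, with correlations of 0.108, 0.131, 0.173 and 0.253 in the E10.5 Gfi1/Gfi1b, E11.5 Gfi1/Gfi1b, Runx1b and ACE sets over 14553 genes. Because no label names embryos, p-values measure only the spread between these sums, which may be technical.

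Comparisons of 1 sum with 1 sum used a 2-fold ratio over members with more than 3 reads in either sum, with no test, and a group under 3 reads was set to 3. The rule of at least 10 CPM was added after the data had been seen. Cells were called erythroid-like where globin genes took 1% or more of the reads. Intervals cover counting error only. The procedures were tested on simulated data. Any of the 37 members could be named, and of other pathway genes at most 5 per comparison, those past the threshold with the largest log2 difference. Members, lists and tests were chosen with earlier results of these data known.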

Additional observations from a re-analysis of the deposited data

Results flagged for a closer look

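Within the 4 HE and the 4 Endo sums, 58 sets of member values with at least 10 CPM were examined, and in 12 of them 1 sum stood far from the other 3 (a gap, over the whole range, past Dixon's 95% critical value). Chance flags about 1 in 20 such sets. Runx1b het HE stood above the other HE sums for Bmp2, at 25.2 CPM against 0 to 2.95 CPM, and for Bmp4, at 136.3 CPM against 1.65 to 19.3 CPM. It also stood above them for Tgfb2, at 101.6 CPM against 1.77 to 8.56 CPM, and for Tgfb3, at 35.4 CPM against 0.614 to 3.27 CPM. Mesenchymal genes summed to 5402 CPM in that sum, as given in the report.

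E11.5 HE stood high for Smad6, at 103.4 CPM against 45.8 to 49.6 CPM, and for Smad2, at 113.2 CPM against 41.3 to 47.2 CPM. E11.5 Endo was high for Smad2 as well, at 98.4 CPM against 37 to 38.4 CPM, and low for Tgfb2, at 36.5 CPM against 48.6 to 51 CPM. E10.5 HE of the Gfi1/Gfi1b line was low for Tgfbr1, at 50.03 CPM against 73.4 to 78 CPM. In the ACE sort, ACE+GFI1+ HE was high for Acvrl1, at 368 CPM against 111.6 to 149.9 CPM. ACE-GFI1- Endo was high for Eng, at 1292 CPM against 601 to 708 CPM, and low for Bmpr2, at 25.9 CPM against 84.1 to 92 CPM. None of these differences was tested.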

How the results depend on the processing

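Of 47 member differences called or with an unadjusted p under 0.05, 715 values under the alternatives were compared with the reported ones: none reversed its direction, 40 lost a call and 72 gained one. A reversal was unlikely beforehand, since the differences were selected in the reported fit and most alternatives reuse its sums. Calls gained by other members are not counted: Bmp4, Tgfb2 and Ltbp3 with DESeq2 for HE over Endo, and Tgfb2 with only Mes and Endo sums. For HE over Endo the reported 1.40% of genes and 2 members became 17.8% and 18 with DESeq2, 6.70% and 6 with cells thinned to 100000 reads, and 3.47% and 6 with cells chosen by pan-endothelial genes. Leaving out 1 set gave 0 to 0.895% of genes and 0 to 1 members. Without the ACE set 0 genes passed edgeR's test (1977 at an unadjusted p under 0.05), without the Runx1b set 3 genes and without the E10.5 Gfi1/Gfi1b set 20 genes. For Mes over Endo the reported 1.33% of genes and 3 members became 6.14% and 6 with DESeq2, 3.42% and 5 thinned, 3.72% and 6 with chosen cells, and 4.57% and 8 with only Mes and Endo sums. There were 5 members with no filter, beside 0.955% of genes, and 5 with the conflicting-stage groups, beside 1.66%. Leaving out 1 sum gave 0.0831 to 0.612% of genes and 0 to 1 members, lowest without het Mes. For CD41+KIT+ over HE the reported 3.48% of genes and 5 members became 12.2% and 14 with DESeq2, 8.50% and 11 thinned, and 5.76% and 10 with chosen cells. Leaving out 1 sum gave 0.879 to 3.55% of genes and 3 to 5 members, with 0.879% without E10.5 IAHC, 1.33% without ACE+GFI1+ HE and 1.71% without Runx1b het HE. The cause of these differences was not tested.

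Without the replicate block HE over Endo gave 3.04% of genes and 5 members. With stage as replicate block in the Gfi1/Gfi1b line, CD41+KIT+ over HE gave 0% of genes and 0 members, with 2 residual degrees of freedom. For the comparisons of 1 sum with 1 sum, all genes at least 2-fold apart are given in brackets. Between E11.5 and E10.5 HE, 16 of 34 members were at least 2-fold apart as reported (8164 of 17746 genes). They numbered 9 by mean of per-cell CPM (7682 of 17746 genes) and 9 without erythroid-like cells (7459 of 17532). Thinned they numbered 10 (4883 of 15166), and with chosen cells 9 (7346 of 17454). Between E11.5 and E10.5 Endo they numbered 11 (7018 of 16525), or 7 thinned (4644 of 14145). Between titled-KO and het HE they numbered 14 (7285 of 21208), or 8 with chosen cells (6093 of 20092). Between labelled-KO and het Mes they numbered 9 (6628 of 19988), or 5 with chosen cells (6501 of 19720). Members near 0 reads, and groups of 14 to 22 cells, are limited by depth and cell number.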
